A study of Mus musculus with 10 samples.

Results

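The 6 genes described here encode gap junction subunits and a related channel protein in tumour lymphatic endothelial cells (LEC): the connexin genes Gja1, Gja4, Gja5, Gjc1 and Gjb2, and the pannexin gene Panx1. They were taken by gene symbol from a table of 23510 gene rows, and all 6 passed the filter on low counts, which 16240 genes passed. LEC form the inner lining of lymphatic vessels; here they were isolated by FACS out of MT-ret melanomas, grown in C57BL/6N mice from tumour fragments placed in the ventral flank, and their RNA was sequenced. Mice of the anti-Ang2 group had received an antibody against angiopoietin-2, a ligand of the endothelial receptor Tie2, and mice of the IgG group had received control IgG, in both cases 12 hours before they were killed. Each group had 5 mice, with 1 library per mouse from 0.5 ng of RNA. Neither the sorting gate nor the age of the mice is stated in the labels.

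Connexins assemble as hexamers into hemichannels, and hemichannels of neighbouring cells dock to form gap junction channels that pass ions and small metabolites. Pannexins have the same membrane topology but no sequence similarity to connexins, and pannexin 1 mostly forms single-membrane channels that release ATP. In mouse lymphatic vessels, connexin 37 (Gja4) and connexin 43 (Gja1) are known from endothelial cells around the valves, where loss of either disturbs valve formation.

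Gja4 and Gja1 gave by far the most counts of the 6 genes, and only Gja4 passed the test between the groups, so the sequence before the transcription start is shown for these 2 genes. In the GENCODE M21 annotation of the mm10 assembly, Gja4 (ENSMUSG00000050234.7) spans 127311421 to 127314039 of chromosome 4 (minus strand), and its whole coding sequence of 999 bases lies in 1 exon. Gja1 (ENSMUSG00000050953.9 in the table, version ENSMUSG00000050953.10 in M21) spans in M21 56377330 to 56402513 of chromosome 10 (plus strand), and its coding sequence of 1146 bases also lies in 1 exon. The 250 bases upstream of the RefSeq start (GRCm38.p6) are chr4:127314040-127314289 on the minus strand for Gja4 and chr10:56377050-56377299 on the plus strand for Gja1. They are written 5′ to 3′, with capitals at the matches to any of 6 motifs searched on both strands.
Gja4: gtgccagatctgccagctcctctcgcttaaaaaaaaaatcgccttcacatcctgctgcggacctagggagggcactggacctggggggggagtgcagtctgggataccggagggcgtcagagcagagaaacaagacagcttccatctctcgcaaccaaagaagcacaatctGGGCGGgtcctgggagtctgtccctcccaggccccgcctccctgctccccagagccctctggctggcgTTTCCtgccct
Gja1: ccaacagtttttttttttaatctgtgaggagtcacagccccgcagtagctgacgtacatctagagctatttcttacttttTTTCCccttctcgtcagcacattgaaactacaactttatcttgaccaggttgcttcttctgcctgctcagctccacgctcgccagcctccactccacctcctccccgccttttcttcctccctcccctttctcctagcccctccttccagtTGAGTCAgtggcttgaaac
The Gja4 window held a GC box (GGGCGG) from -79 to -74 and an NFAT core (GGAAA, on the opposite strand) from -11 to -7, counted back from the start. The Gja1 window held an NFAT core on the opposite strand from -170 to -166 and an AP-1 site (TGANTCA) from -19 to -13. Of 32851 promoter windows of the same length, 32.7% held the GC box, 55.6% the NFAT core and 6.75% the AP-1 site. The forkhead core (TAAACA, in 12.0% of windows), the KLF core (CACCC, 52.0%) and the RBPJ core (GTGGGAA, 5.42%) had no match in either window. GGAAA contains the GGAA core of ETS factors, so these matches overlap with possible ETS matches.

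The other members have the following places in the same annotation. Gja5 (ENSMUSG00000057123.14) spans 96904693 to 97077416 of chromosome 3 (plus strand), Gjc1 (ENSMUSG00000034520.14) spans 102799579 to 102819700 of chromosome 11 (minus strand) and Gjb2 (ENSMUSG00000046352.7) spans 57098600 to 57104702 of chromosome 14 (minus strand). Panx1 (ENSMUSG00000031934.14) spans 15002128 to 15045478 of chromosome 9 (minus strand), and its coding sequence is split over 5 exons. Each span runs from the first to the last annotated base of the gene, introns and untranslated regions included. Gja5 was the only one of the 6 with an exon overlapping that of another gene: 165 of its 5746 exonic bases are shared with Gpr89 on the opposite strand. The cDNA kit does not mark strand, so reads in that stretch cannot be assigned to one of both genes. Gpr89 itself had 27.6 ± 2.94 CPM in anti-Ang2 and 27.1 ± 2.64 CPM in IgG libraries (SD, n = 5 each).

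The libraries held 38090933 to 83850341 gene counts. The summed CPM of 12 LEC markers was 17746 to 24293 in anti-Ang2 and 21788 to 25228 in IgG libraries. By edgeR, 3 of the 12 fell and 0 rose, against 2.8% and 1.34% of all tested genes. The lineage regulator Prox1 had 980 to 1343 CPM (counts scaled to library size, with TMM as a correction for composition) in anti-Ang2 and 1183 to 1390 CPM in IgG libraries, and the hyaluronan receptor Lyve1 4305 to 6187 CPM and 4429 to 5244 CPM. The 3 markers that fell had groups without overlap: the chemokine gene Ccl21a had 278 to 512 CPM in anti-Ang2 and 624 to 1187 CPM in IgG libraries, the receptor gene Nrp2 223 to 327 and 537 to 1095 CPM, and the semaphorin gene Sema3d 317 to 363 and 497 to 587 CPM. The marker Pdpn, not among these 3, also had groups without overlap (180 to 257 CPM in anti-Ang2, 261 to 304 CPM in IgG libraries). Of all tested genes, 6.1% had groups without overlap. The part of these marker levels in the results below was not tested. RNA of other cells was present. The summed CPM of 12 melanoma markers was 1650 to 8035 in anti-Ang2 libraries, highest in libraries 1, 2 and 3, and 399 to 2622 in IgG libraries, with none of the 12 at 0 in any library. The sum of 12 blood endothelial markers was 3074 to 6189 and 4000 to 6436 CPM, that of 11 pericyte and smooth muscle markers 156 to 444 and 61.8 to 241 CPM, that of 10 fibroblast markers 206 to 734 and 190 to 924 CPM, and that of 15 macrophage and monocyte markers 77.7 to 321 and 57.5 to 223 CPM, in the same order of groups. The sum of the 8 keratinocyte markers with a row was at most 3.14 CPM in anti-Ang2 and 4.49 CPM in IgG libraries. Anti-Ang2 libraries 4 and 5 had the lowest quality weights (0.606 and 0.417, the others 0.911 to 1.43).

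Of the 6 genes, Gja4 fell after anti-Ang2 and none rose, against 2.8% of all tested genes that fell and 1.34% that rose (edgeR quasi-likelihood test, Benjamini-Hochberg adjusted p under 0.05 over all tested genes). The other 5 were not called. The libraries of both groups overlapped in CPM for each of the 6 genes, whereas they did not overlap for 6.1% of all tested genes. The median log2 fold change of the 6 was 0.15, beside 0.01 over all tested genes. In bulk RNA, a lower transcript level can come from less RNA per cell or from fewer of the cells that hold it, and these cannot be told apart here.

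**Figure D1:**
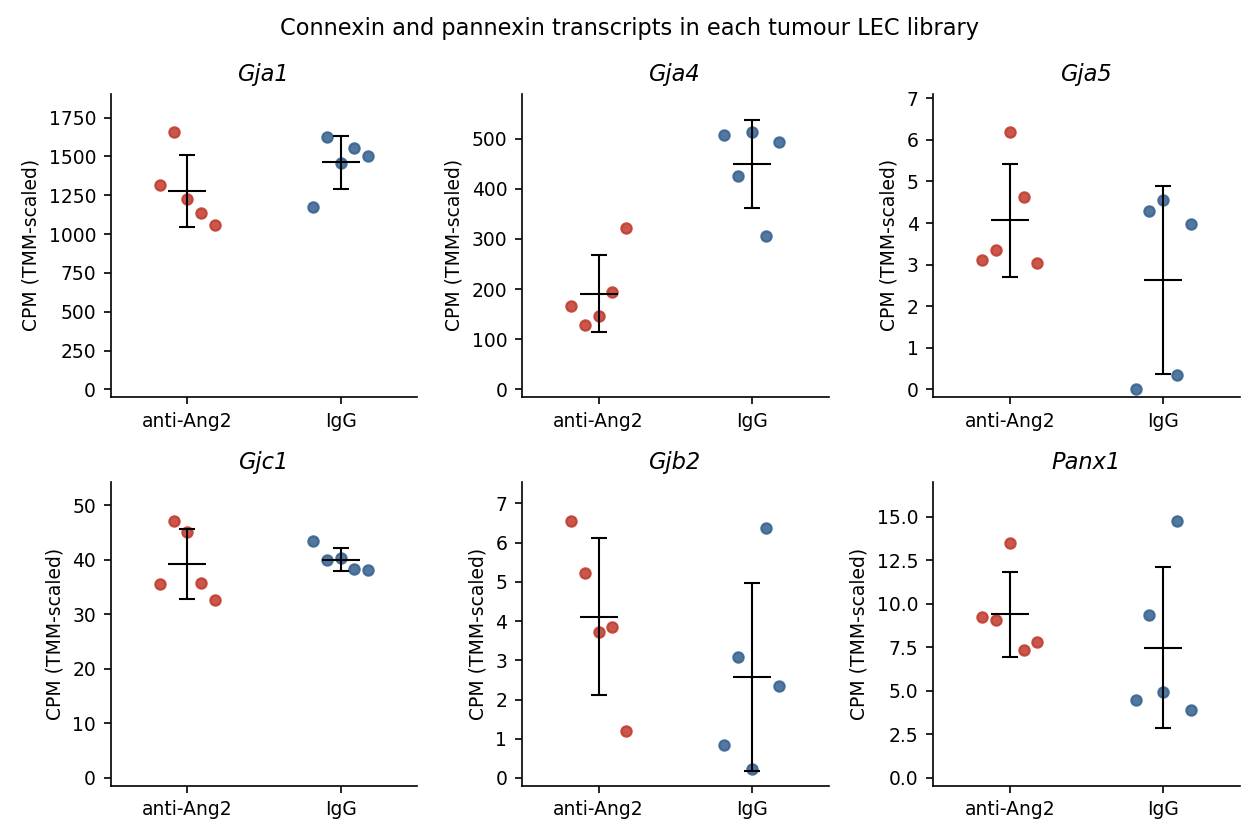
Level of each of the 6 transcripts in CPM (TMM-scaled), with 1 point per library, anti-Ang2 on the left and IgG on the right; bars give the mean and SD of 5 libraries. The groups overlap for all 6 genes, for Gja4 only through anti-Ang2 5 (322 CPM) and IgG 4 (305 CPM).

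Gja4 encodes connexin 37, a connexin of arterial and lymphatic endothelium. It had 166, 128, 146, 193 and 322 CPM in anti-Ang2 libraries 1 to 5, and 507, 425, 513, 305 and 494 CPM in IgG libraries 1 to 5. Anti-Ang2 libraries 1 to 4 lay below every IgG library, while anti-Ang2 5 lay above IgG 4 and below the other 4. The means were 191 ± 77.2 CPM in anti-Ang2 and 449 ± 87.5 CPM in IgG libraries (SD, n = 5 each). The log2 fold change was -1.23 ± 0.24 (SE; 95% interval -1.76 to -0.71), or 0.425 times the IgG level, with an adjusted p of 0.0153 by edgeR. Gja4 ranked 320 by p among the 16240 tested genes. In the authors' deposited table its log2 fold change was -1.13, with an adjusted p of 2.137e-05 (DESeq2, per the submitters' processing notes). The deposited fold changes of the members were smaller in size than those of a DESeq2 fit to the counts (Gjb2 0.05 and 0.69), so the scales differ.

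The call of Gja4 held in each of the 10 fits that left out 1 library (highest adjusted p 0.0479 by edgeR, without IgG 3). Without the low-weight libraries anti-Ang2 4 and 5, the log2 fold change was -1.63 ± 0.18 (adjusted p = 0.00449 by edgeR). These libraries also had the lowest melanoma marker sums of the anti-Ang2 group (2569 and 1650 CPM), so weight and melanoma content are not separated there. The threshold was missed where the melanoma marker sum, which was higher in anti-Ang2 libraries, was taken into the fit. Fitted with that sum, Gja4 had a log2 fold change of -0.65 ± 0.20 (adjusted p = 0.202 by edgeR), with both estimate and SE smaller than without the sum. Because the sum differed between the groups, this fit cannot tell treatment and melanoma RNA apart. Without anti-Ang2 1, 2 and 3, the libraries of highest melanoma sum, the log2 fold change of Gja4 was -0.81 ± 0.26 (adjusted p = 0.174 by edgeR). That fit kept only the low-weight libraries anti-Ang2 4 and 5 of the group, and called 233 genes over the whole table, against 671 with all libraries. With the macrophage marker sum as a covariate, Gja4 was at -1.09 ± 0.26 (adjusted p = 0.0797 by edgeR). Within the IgG group, the order of Gja4 levels was the reverse of that of the melanoma sums. From IgG 3 over IgG 1, 5 and 2 to IgG 4, the sums were 399, 651, 864, 2455 and 2622 CPM. Gja4 in the same libraries was at 513, 507, 494, 425 and 305 CPM. Within the anti-Ang2 group, libraries 5 and 4, with the lowest melanoma sums (1650 and 2569 CPM), had the highest Gja4 levels (322 and 193 CPM). Among libraries 1, 2 and 3, with sums of 8035, 5958 and 6863 CPM, Gja4 was in the same order as the sum (166, 128 and 146 CPM). The relation of Gja4 to the melanoma sum within groups was not tested. The sum of pericyte and smooth muscle markers was also higher in anti-Ang2 libraries, and its part in the result was not tested.

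**Figure D2:**
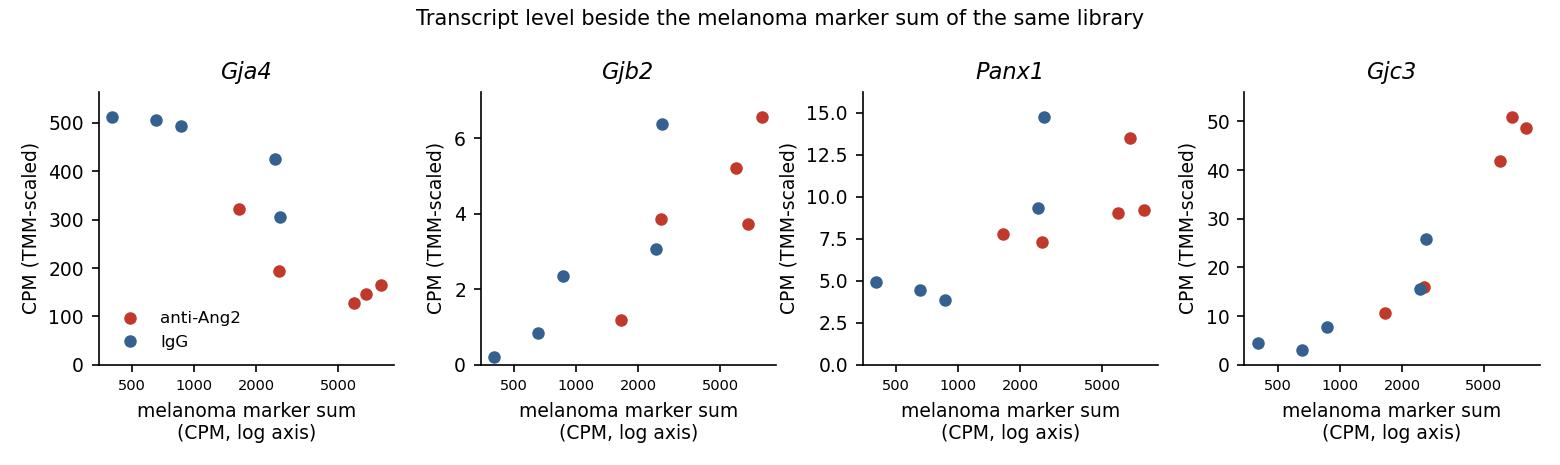
Level of Gja4, Gjb2, Panx1 and Gjc3 in CPM (TMM-scaled, vertical axes from 0) against the summed CPM of 12 melanoma markers in the same library (log axis), with 1 point per library. Gja4 is at 425 CPM or below in each library whose melanoma sum is 1650 CPM or more. Those libraries take in the whole anti-Ang2 group, with IgG 2 and IgG 4, so melanoma sum and treatment are not separated. Gjc3 is highest in the 3 anti-Ang2 libraries with the highest sums.

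Gja1 encodes connexin 43, the most widely expressed connexin. Its level was 1313, 1656, 1226, 1137 and 1060.3 CPM in anti-Ang2 libraries 1 to 5, and 1174, 1623, 1454, 1553 and 1504 CPM in IgG libraries 1 to 5. The groups overlapped, with the highest library of all in anti-Ang2 (library 2) and IgG 1 among the lower anti-Ang2 libraries. The log2 fold change was -0.19 ± 0.13 (SE; 95% interval -0.48 to 0.09; adjusted p = 0.488 by edgeR), so a decrease to 0.719 times the IgG level lies within the interval and a halving does not. Fitted with the melanoma sum, Gja1 was at -0.44 ± 0.16 (adjusted p = 0.270 by edgeR). The interval of Gja1 lay above that of Gja4, but the difference between the changes of the 2 genes was not tested.

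Gjc1 encodes connexin 45, known from the early heart and from smooth muscle. It was the steadiest of the 6 genes. Its level was 35.6, 47.2, 45.1, 35.8 and 32.7 CPM in anti-Ang2 libraries 1 to 5, and 43.4, 40.01, 40.2, 38.4 and 38.03 CPM in IgG libraries 1 to 5. All IgG libraries lay within the range of the anti-Ang2 libraries, whose SD was wider (6.43 and 2.14 CPM). Its log2 fold change was -0.03 ± 0.11 (95% interval -0.27 to 0.22; adjusted p = 0.939 by edgeR), the narrowest interval of the 6 genes.

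Panx1, Gjb2 and Gja5 were low, and their intervals were wide. Panx1, the ATP release channel, had 9.25, 9.04, 13.5, 7.32 and 7.81 CPM in anti-Ang2 libraries 1 to 5, and 4.45, 9.37, 4.96, 14.8 and 3.89 CPM in IgG libraries 1 to 5. All anti-Ang2 libraries lay within the range of the IgG libraries, of which IgG 4 and IgG 2, those with the highest melanoma sums, were the highest. The log2 fold change was 0.32 ± 0.37 (95% interval -0.48 to 1.13; adjusted p = 0.729 by edgeR), and -0.44 ± 0.33 in the fit with the melanoma sum (adjusted p = 0.621).

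Gjb2 encodes connexin 26, a connexin of epithelia, of keratinocytes in the skin and of the inner ear. It had 6.56, 5.22, 3.73, 3.85 and 1.20 CPM in anti-Ang2 libraries 1 to 5, and 0.852, 3.08, 0.219, 6.37 and 2.35 CPM in IgG libraries 1 to 5. Levels ranged widely in both groups, with IgG 4 nearly as high as the highest anti-Ang2 library. The log2 fold change was 0.68 ± 0.71 (95% interval -0.87 to 2.22; adjusted p = 0.699 by edgeR). With the melanoma sum as a covariate its sign turned (-1.05 ± 0.58, adjusted p = 0.478). Of the 8 keratinocyte markers, Krt5, Krt14 and Dsp were at 0 in every anti-Ang2 library and at most at 0.966, 0.712 and 1.20 CPM in IgG libraries, whereas Krt10 (1.17 to 2.10 CPM in anti-Ang2, 1.02 to 2.40 CPM in IgG) and Sfn (0.309 to 0.629 and 0.288 to 0.870 CPM) were present in every library.

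Gja5 encodes connexin 40, a connexin of arterial endothelium. It had 3.11, 3.35, 6.18, 4.63 and 3.04 CPM in anti-Ang2 libraries 1 to 5, and 0, 4.30, 4.54, 0.336 and 3.96 CPM in IgG libraries 1 to 5. It was detected in all anti-Ang2 libraries, while in the IgG group 1 library had no count and another had 14 counts, the remaining 3 lying in the anti-Ang2 range. A count of 0 in IgG 1 allows a level of up to 0.0730 CPM (3 counts in that library; this limit covers counting error only). For Gja5 the log2 fold change was 0.63 ± 0.90 (95% interval -1.35 to 2.60; adjusted p = 0.796 by edgeR), which leaves a change in either direction by more than 2-fold within the interval.

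**Figure D3:**
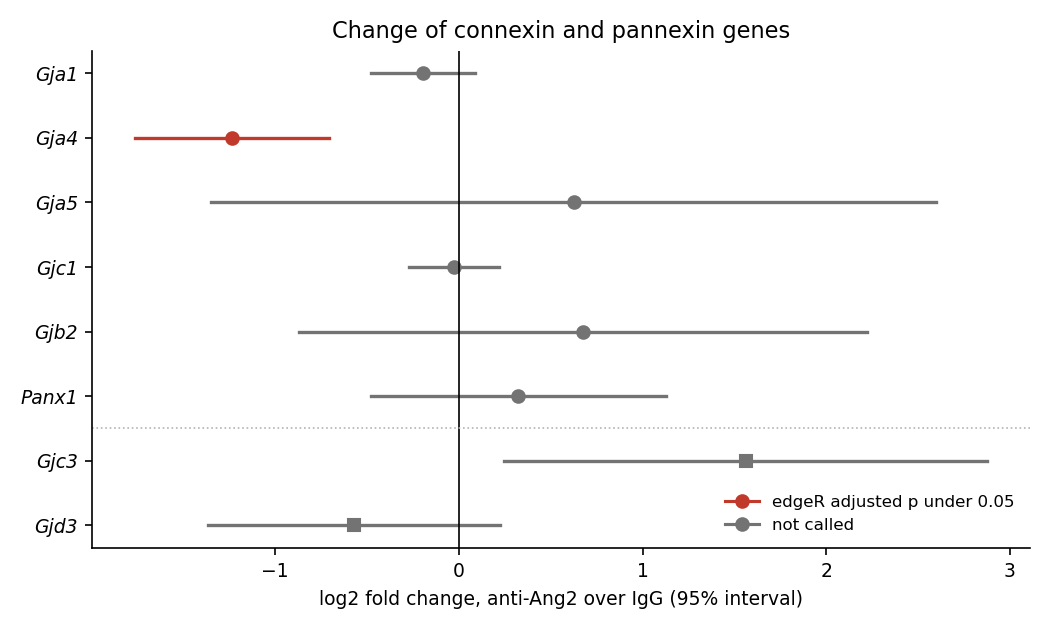
log2 fold change of anti-Ang2 over IgG (edgeR, points) with its 95% interval (lines) for the 6 genes (circles) and for the connexin genes Gjc3 and Gjd3 (squares). Gja4, in red, has an adjusted p under 0.05, and the intervals of Gja5 and Gjb2 are the widest among the 6.

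Levels were compared between genes on the deposited FPKM, which divide by exon length. The order of the 6 mean levels over all libraries was Gja1, Gja4, Gjc1, Panx1, Gjb2 and Gja5. Gja1 had 428 ± 60.8 FPKM in anti-Ang2 and 484 ± 53.1 FPKM in IgG libraries, Gja4 119 ± 51.1 and 274 ± 52.2 FPKM, and Gjc1 8.16 ± 1.09 and 8.23 ± 0.60 FPKM (SD, n = 5 each). Among the 3 lowest genes, all well below Gjc1, the library ranges of neighbours overlapped in both groups, and their order was not tested. They had 1.62 ± 0.41 and 1.28 ± 0.81 FPKM for Panx1, 1.77 ± 0.85 and 1.104 ± 1.05 FPKM for Gjb2 and 0.738 ± 0.249 and 0.463 ± 0.398 FPKM for Gja5, anti-Ang2 before IgG in each pair.

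The first place of Gja1 rested on the length of its gene model. The deposited FPKM imply an exon length of 3105 bases for Gja1, whereas the GENCODE M21 model, a later version of the same gene, has 10257 exonic bases; for the other 5 genes both lengths were the same. Counts divided by the M21 lengths gave a mean of 133 FPKM for Gja1 and 189 FPKM for Gja4, so that these 2 genes changed places and the other 4 kept theirs. A comparison of a gene with itself between groups does not depend on this length.

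On the deposited scale, Gja1 and Gja4 made up nearly all of the summed FPKM of the 6 genes, which was 515 to 612 in anti-Ang2 and 729 to 804 in IgG libraries, with no overlap. Gja1 took 79.3%, 85.6%, 79.7%, 74.5% and 63.1% of this sum in anti-Ang2 libraries 1 to 5, and 54.9%, 66.4%, 59.9%, 72.0% and 61.5% in IgG libraries 1 to 5. Gja4 took 18.5%, 12.2%, 17.5%, 23.3% and 35.3% in anti-Ang2, and 43.7%, 32.1%, 38.9%, 26.1% and 37.2% in IgG libraries. The share of Gja4 was thus lower in anti-Ang2 libraries 1 to 4 than in any IgG library, and in anti-Ang2 5 it lay among the IgG libraries. The ratio of Gja4 to Gja1 FPKM was 0.293 ± 0.161 in anti-Ang2 and 0.579 ± 0.165 in IgG libraries (SD, n = 5 each). These shares and ratios are a description, with no test, and depend on the length taken for Gja1. With M21 lengths, the mean over all libraries was higher for Gja4 than for Gja1 (189 and 133 FPKM), the reverse of the deposited scale.

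**Figure D4:**
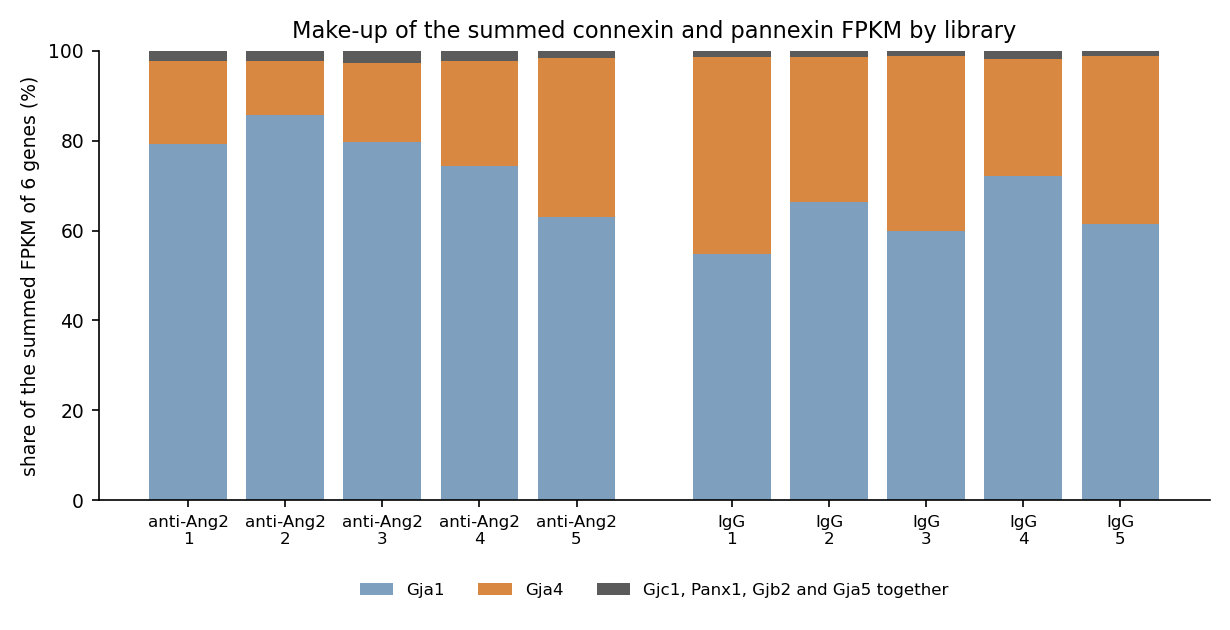
Share of the summed deposited FPKM of the 6 genes in each library (percent, stacked to 100), anti-Ang2 libraries on the left and IgG libraries on the right. The Gja4 segment takes 12.2% to 35.3% in anti-Ang2 and 26.1% to 43.7% in IgG libraries.

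Outside the 6 genes, 2 further connexin genes are described. Gjc3, whose product connexin 29 is known from myelinating glia, had 48.7, 41.8, 51.0, 15.9 and 10.6 CPM in anti-Ang2 libraries 1 to 5, and 3.14, 15.5, 4.57, 25.9 and 7.78 CPM in IgG libraries 1 to 5. It was highest in the 3 anti-Ang2 libraries with the highest melanoma sums and, among IgG libraries, in the 2 with the highest sums. Its log2 fold change was 1.56 ± 0.60 (adjusted p = 0.186 by edgeR), and -0.27 ± 0.30 in the fit with the melanoma sum (adjusted p = 0.743). Gjd3, a further connexin gene, had 10.1, 2.99, 9.55, 6.77 and 11.3 CPM in anti-Ang2 libraries 1 to 5, and 13.9, 15.5, 5.52, 10.3 and 15.1 CPM in IgG libraries 1 to 5. Its groups overlapped (log2 fold change -0.57 ± 0.36, adjusted p = 0.462 by edgeR).

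**Figure D5:**
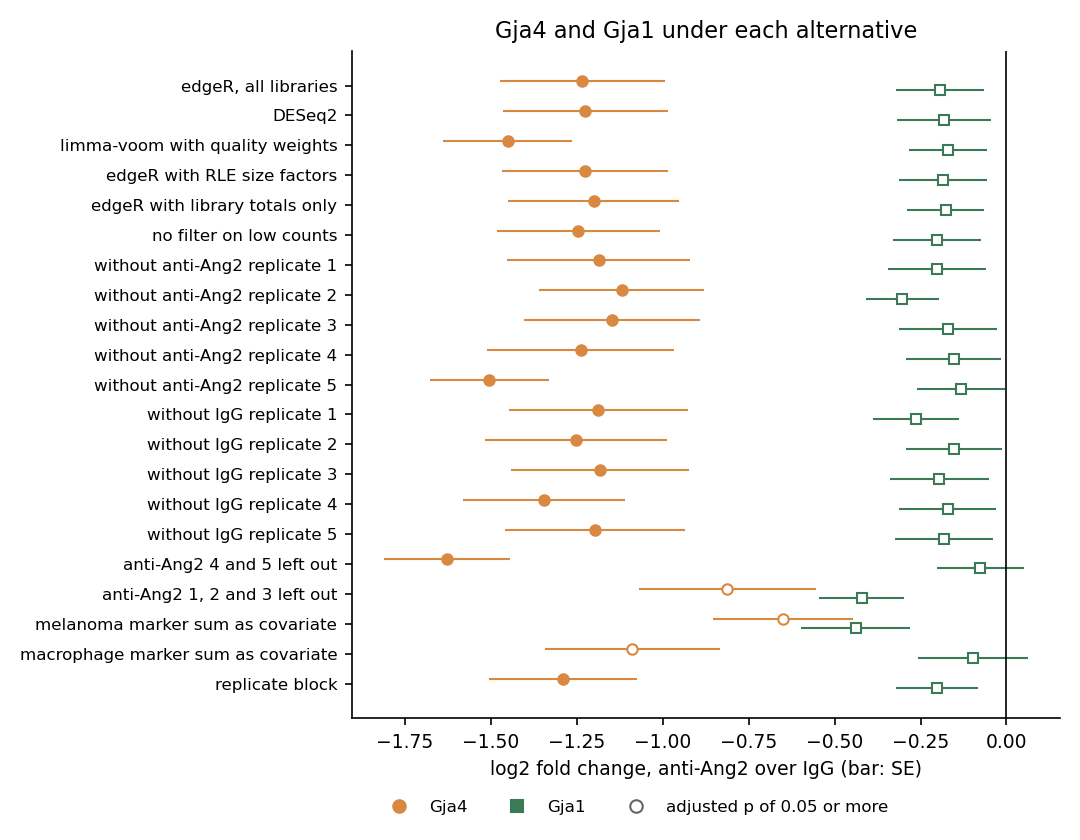
log2 fold change of Gja4 (circles) and Gja1 (squares), anti-Ang2 over IgG, in the fit of all libraries and under each alternative; bars give the SE and open symbols an adjusted p of 0.05 or more. Gja4 lies between -1.63 and -0.65 and is nearest to 0 with the melanoma sum as a covariate, whereas Gja1 lies between -0.44 and -0.08 and is open throughout.

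Genes that act with connexins and pannexins were described from 3 lists. Of 29 tested genes for scaffolds, trafficking factors and kinases of gap junctions, 1 rose and 0 fell (3.45%, against 4.13% of all tested genes called in either direction), with a median log2 fold change of 0.10. The gene that rose was Dbn1, which encodes drebrin, an actin-binding partner of connexin 43. It had 228 ± 11.9 CPM in anti-Ang2 and 176 ± 12.1 CPM in IgG libraries (log2 fold change 0.37 ± 0.07, adjusted p = 0.0133 by edgeR). Dbn1 missed the threshold in the fits with the melanoma sum (0.28 ± 0.10, adjusted p = 0.242 by edgeR) and the macrophage sum (0.35 ± 0.09, adjusted p = 0.100). The same held without anti-Ang2 1, 2 and 3 (0.295 ± 0.089, adjusted p = 0.157 by edgeR). The 20 tested genes of pannexin-linked ATP release, its breakdown and its receptors had a median log2 fold change of -0.01.

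Of 27 tested genes for transcription factors, receptors, matrix and flow or Notch genes tied to endothelial connexins, lymphatic valves or arteries, 9 fell and 1 rose (37%, against 4.13% of all tested genes), with a median log2 fold change of -0.19. The list was written with earlier results of these data known, so this share is no independent evidence of a direction. The 8 called genes with the smallest p were the receptor gene Ephb4 (-0.77), Tek (-1.32), the ephrin gene Efnb2 (-1.39), the fibronectin gene Fn1 (1.21), the valve transcription factor gene Foxc2 (-1.05), the integrin gene Itga9 (-1.11), Tie1 (-0.51) and the Notch target Hey1 (-0.84). The 2 further genes, named after their values were seen, were Notch1, at 291 ± 11.5 CPM in anti-Ang2 and 418 ± 82.6 CPM in IgG libraries (-0.52 ± 0.12, adjusted p = 0.0384 by edgeR), and Gata2, an upstream factor of lymphatic valve genes, at 137 ± 8.47 and 182 ± 25.7 CPM (-0.41 ± 0.10, adjusted p = 0.0401). When each library was omitted in turn, Notch1 was called in 2 of 10 fits (adjusted p up to 0.0997 by edgeR), Gata2 in 3 (up to 0.110) and Hey1 in 4 (up to 0.0860). In the fit with the melanoma sum, Ephb4, Tek, Efnb2 and Itga9 kept their call by edgeR, and the other 6 did not: Fn1 was at 1.14 (adjusted p = 0.0553), Foxc2 at -0.82 (0.125), Tie1 at -0.44 (0.212), Hey1 at -0.59 (0.336), Notch1 at -0.25 (0.528) and Gata2 at -0.29 (0.399). In the fit with the macrophage sum, Itga9 (adjusted p = 0.0536 by edgeR), Tie1 (0.134), Hey1 (0.263), Notch1 (0.0918) and Gata2 (0.246) missed the threshold.

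The genes most like each member over the 10 libraries were found by Pearson's r of log2 CPM. For Gja4 they were Prkcz (r = 0.97), Creb3l3 (0.97) and S100a10 (0.96), with r of 0.95, 0.87 and 0.90 for deviations from the group means. For Gja1 they were Fkbp10 (0.97), Tbc1d8b (0.94) and Mbtps1 (0.93), with 0.97, 0.93 and 0.92 for the deviations. For Gjc1 they were Plekho2, Stoml2 and Tgfb1 (0.90 to 0.92), for Gja5 B3gat3, Uba2 and Pias4 (0.89 to 0.90), for Panx1 Prune1, Laptm4b and Bend6 (0.88 to 0.90), and for Gjb2 Gria4, Enpp1 and Fam184b (0.96 each). These are the highest correlations picked from all genes at or above the level minimum, over the same 10 libraries, which share depth, sorting and composition, and are given as a description.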

How the data were processed

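RNA of sorted tumour LEC from 10 mice was sequenced, 5 libraries per treatment, grouped by the treatment label. Per the labels' protocols, a SMART-Seq v4 kit made the cDNA; this kind of kit leaves strand unmarked. STAR, featureCounts and DESeq2 with mm10 are named in the submitters' processing notes; no version, annotation or strandedness option is given there. The authors deposited raw counts per gene, which were the input of every test, and FPKM per library, used only to compare levels between genes. The deposited TPM columns sum to more than that unit allows, and were treated as a relative score and not used, and the deposited baseMean, a signal of scaled counts, was not used. Log2 fold changes with p-values were also deposited, from the authors' own comparison. Apart from the TPM columns, there were 0 unused columns of per-sample values.

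Of the 23510 rows, 23435 had an ID in GENCODE M21 (GRCm38) with the version set aside, from which coordinates and exon lengths were taken. Promoter sequences are from RefSeq (GRCm38.p6); 5 of the 6 members matched. The motif set was chosen with these sequences in view. Counts were tested with edgeR 4.0.16 in R 4.3.3 (quasi-likelihood F test, two-sided, TMM scaling, filterByExpr at 10 counts and 15 in total, a model of treatment alone), with Benjamini-Hochberg adjustment over all 16240 tested genes. The SE and 95% interval were derived from the F statistic. Log2 CPM used a prior count of 2, and likeness was searched among genes with a mean log2 CPM of at least 1. Alternatives used DESeq2 1.42.0, limma 3.58.1 (voom with quality weights), other scaling, no filter, left-out libraries, marker sums as covariates and a replicate block. The edgeR fit was tested on simulated data. Other tools were Python 3.11.15, pandas 2.3.3, numpy 2.4.6 and matplotlib 3.10.9.

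Library totals ran from 38090933 to 83850341 counts. Reads carry no molecular identifiers, so limits from counts cover counting error only. Every pair of libraries differed by more than sampling noise (chi-square over its degrees of freedom at least 50.9). The rule for naming genes took all 6 members, the other connexin or pannexin genes that passed the filter, up to 8 called genes with the smallest p from each of the 3 lists, and for each member the 3 most correlated genes; some genes that the rule names are not reported here. The members and lists were chosen with earlier results of these data known.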

Additional observations from a re-analysis of the deposited data

How the results depend on the processing

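Most alternatives changed one choice. DESeq2 changed test, scaling and gene filter together, so these are not separated there. For limma-voom, run with quality weights per library, test and weighting are not separated. Gja4 was the called member in 17 of 20 alternatives and fell in all of them; without 1 library its log2 fold change was -1.50 to -1.12. It was -0.81 without anti-Ang2 1, 2 and 3, -0.65 with the melanoma sum and -1.09 with the macrophage sum as a covariate, each no longer called. The other 5 members were called in none of the 20. Gjc1, near 0, changed sign with weighted limma-voom (0.0184) and without anti-Ang2 4 and 5 (0.078), and ranged from -0.101 to 0.0322 without 1 library. Gjb2 changed sign without anti-Ang2 1, 2 and 3 (-0.0283) and with the melanoma sum (-1.05), as did Panx1 with the melanoma sum (-0.44). Gjc3 changed sign with that sum (-0.27) and was called with weighted limma-voom (1.96, adjusted p = 0.0484). Causes of these shifts were not tested. Without 1 library, Gja1 ranged from -0.30 to -0.13, Gja5 from 0.30 to 0.91, Gjb2 from 0.38 to 1.33 and Panx1 from 0.16 to 0.72. The order of levels kept 4 of 6 places with M21 lengths, which follows from the length of Gja1.

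Over the whole table, 671 genes were called. The count was 1690 with DESeq2, 1450 with weighted limma-voom, 1129 without anti-Ang2 4 and 5, 233 without anti-Ang2 1, 2 and 3, 90 with the melanoma sum and 193 with the macrophage sum as a covariate. Without 1 library it ranged from 341 to 794, with 422 without anti-Ang2 3, 409 without IgG 2 and 341 without IgG 3. The titles give both groups the same numbers, but deviations of same-numbered libraries correlated at -0.125 to 0.113. This gave no sign that the numbers pair the libraries, though a weak pairing might not show in it. With a replicate block, 350 genes were called and Gja4 was at -1.29 (adjusted p = 0.0337 by edgeR). Dbn1, Tie1, Hey1, Notch1 and Gata2 were not called in that fit. At this depth Gja5 and Gjb2, with 1718 and 1690 counts over all libraries, are limited by their spread between libraries.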

Other observations

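Several connexin genes had a row but stayed below the filter on low counts and entered no comparison. Gjb5 had 16 counts in anti-Ang2 1 and 0 in the other 9 libraries. Gjb6, the partner of Gjb2 in inner ear and skin, had 18 counts in anti-Ang2 1 and 19 in anti-Ang2 3, and 0 in the other 8 libraries. Gja6 had 45 counts in anti-Ang2 5, 4 in anti-Ang2 1 and 0 in the other 3 anti-Ang2 libraries, and 1 to 51 counts in IgG libraries.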
